A study of Takifugu rubripes with 9 samples.

Results

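The liver library of *T. rubripes* (torafugu) was set against the small RNA libraries of 7 other tissues. It is 1 of 8 libraries with counts used here, out of 9 tissues listed for the study, and fast muscle was not analysed here. The other 7 libraries are intestine, eye, brain, heart, slow muscle, ovary and testis. All are labelled wild type, no treatment is listed, and all tissues were dissected from 2 adult fish. Which fish gave which tissue is not stated, and each tissue has 1 library, so there is no replicate error for any value. A difference between liver and another library therefore combines tissue, animal and library preparation, which cannot be told apart.

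Reads of each distinct sequence of 18 to 25 nt were summed by miRNA name and arm. An arm is the 5p or the 3p side of the hairpin precursor. Sequences that the authors matched to a precursor but to no mature entry were kept apart as precursor-only reads. Levels are given in CPM, the reads of a name scaled to 1000000 annotated reads of its library. The liver library held 437295 annotated reads, and the others held between 54540 reads (testis) and 1207961 reads (intestine). A count of 3 reads, taken as the detection floor, was 6.86 CPM in liver and 55.0 CPM in testis. Intervals of ratios are exact 95% Clopper-Pearson intervals and intervals of shares are 95% Wilson intervals. They describe counting error alone, since reads copied by PCR do not each stand for a molecule. In testis, 18.5% of the reads fell to 5 names made mostly of sequences of up to 19 nt that end in CCA, against 0.314% in liver and at most 2.00% in the other 6 libraries.

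A miRNA guides an Argonaute protein to messenger RNAs that pair with its seed, bases 2 to 8 from the 5′ end, and lowers their stability or translation. The start of the 5′ end therefore sets which seed is presented. In vertebrates miR-122 is the classical miRNA of hepatocytes, where it acts on cholesterol and fatty acid metabolism. Liver also contains bile duct epithelium, blood vessels, stellate cells and blood, and in many fishes pancreatic tissue lies in or along the liver. Summed over a tissue, fewer cells of a type and less RNA per cell cannot be told apart.

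The following sequences are those on which the liver profile turns, as read from the deposited counts and written as DNA, 5′ to 3′, with the seed in capitals. Each is the most common liver sequence of its name unless stated otherwise.
miR-122-5p: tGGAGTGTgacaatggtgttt
miR-122 precursor-only: aACGCCATtatcacactaaat
miR-22a-3p: aAGCTGCCagctgaagaactgt
miR-101b-3p, earlier start: gTACAGTActatgataactga
miR-101b-3p, later start: tACAGTACtatgataactga
miR-152-3p: tCAGTGCAtaacagaactttg
miR-148-3p: tCAGTGCAttacagaactttg
miR-217-5p: tACTGCATcaggaactgattgg
miR-460-3p: cACAGCGCatacaatgtggat
miR-460 precursor-only: cCTGCATTgtacacactgtgc
miR-192-5p: aTGACCTAtgaattgacagcc
miR-215-5p: aTGACCTAtgaattgacagaca
miR-199-5p, earlier start: gCCCAGTGttcagactacctgt
miR-199-5p, later start: cCCAGTGTtcagactacctgt
miR-152-3p and miR-148-3p shared their seed, as did miR-192-5p and miR-215-5p. The 2 forms of miR-199-5p and the 2 forms of miR-101b-3p differed in the seed because they began 1 base apart.

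The label of the liver library was checked with miR-122. miR-122-5p was the leading name in liver, with 58596 reads or 133997 CPM. The same name had 358 reads in intestine, 37 in ovary, 19 in heart, 42 in slow muscle, 4 in brain, 2 in eye and 0 in testis. It held 13.4% (95% Wilson interval 13.3 to 13.5) of the liver reads. The liver library thus carried its defining miRNA at a level that no other library approached. Muscle and gonad markers were low in it: miR-1-3p, the leading name of heart and slow muscle, was at 169 CPM in liver, and the 6 names of the gonad miRNAs miR-202 and miR-430 had 0 reads, which allows up to 6.86 CPM.

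The liver library was of intermediate evenness. Its 3 leading names, miR-122-5p, miR-22a-3p and miR-145-5p, held 36.9% of the reads, and its 10 leading names held 64.6%. The shares for the 10 leading names of the other libraries were between 51.4% (brain) and 77.5% (ovary). In liver 44 names were needed for 90% of the reads, against 26 to 58 in the other libraries. Of the 631 names found in any library, 389 had reads in liver and 164 reached 100 CPM there. Sequences identical to a mature entry made up 44.8% of the liver reads, forms with a changed end 47.5%, and precursor-only reads 7.66%.

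The 10 leading liver names showed several kinds of pattern. miR-122-5p was nearly absent elsewhere, and miR-22a-3p, a miRNA found in most vertebrate tissues, was abundant in all libraries and highest in liver. miR-145-5p, known from smooth muscle, was at 111849 CPM in liver, between 25855 CPM (brain) and 583322 CPM (ovary) in the others. miR-192-5p, a miRNA of the digestive tract, was at 73751 CPM in liver and at 352792 CPM in intestine. miR-126a-3p, an endothelial miRNA, was at 51960 CPM in liver, below heart (117664 CPM) and slow muscle (71216 CPM). Next came miR-19b-3p of the miR-17 to miR-92 cluster, miR-199-5p, miR-26-5p, the red cell miRNA miR-451-5p and miR-199 precursor-only. Of these, miR-199-5p was highest in liver, with 29788 CPM against 22975 CPM in ovary, the next library. Its ratio of 1.30 turned to 0.221 when only sequences identical to the mature entry were counted, which leaves out forms with a changed end. It was at least 2 with the study's 18 to 25 nt totals as denominator, and also without ovary and testis. The other 4 were each exceeded by at least 1 other library. For miR-19b-3p the ratio to testis was 0.567, and the ratio to the highest other library was 2.44 with the study's 18 to 25 nt totals as denominator and 2.09 without testis.

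**Figure D1:**
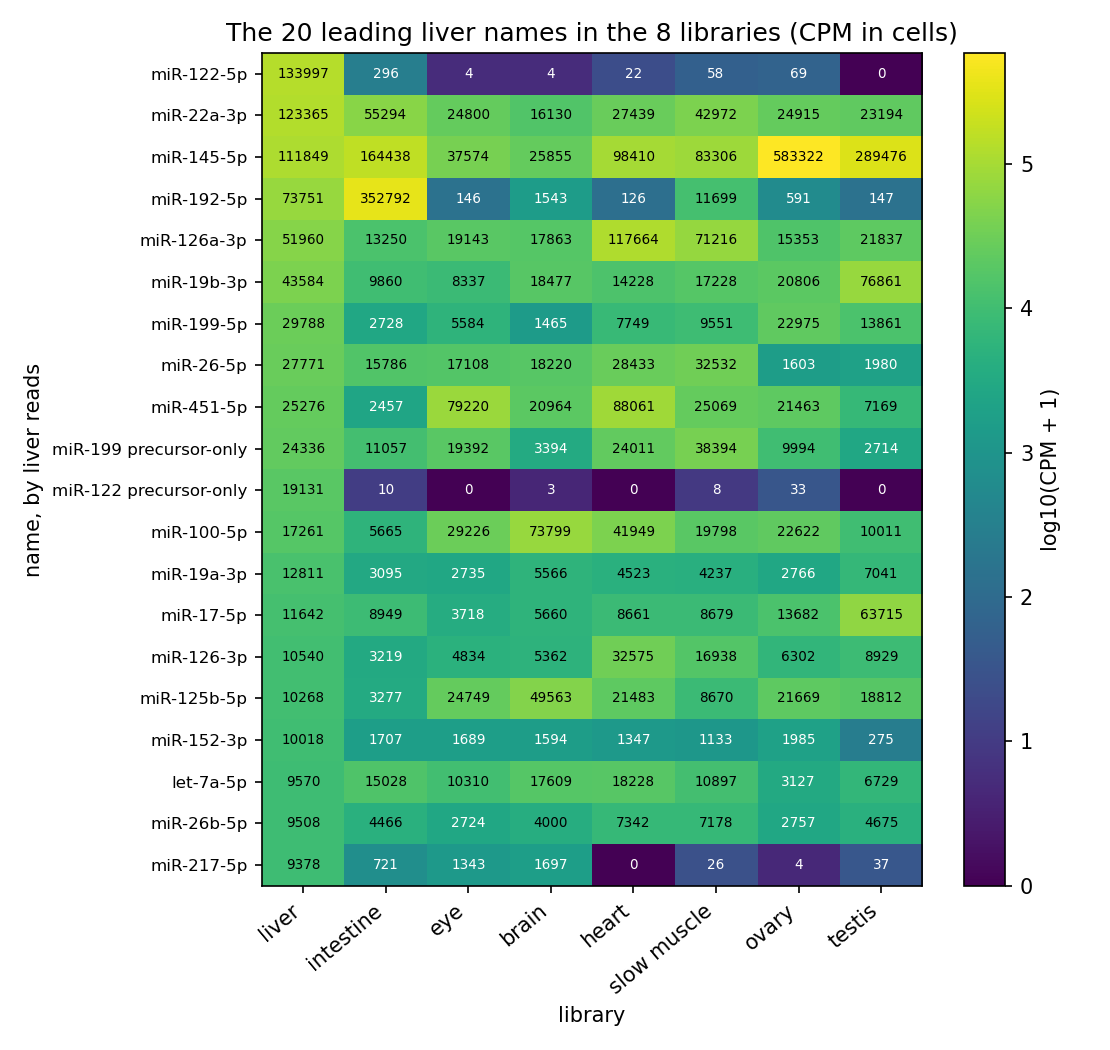
CPM of the 20 names with the most reads in liver, by library, with liver at the left, rows ordered by liver reads, colour giving log10(CPM + 1) and the number in each cell giving the CPM. miR-122-5p and miR-122 precursor-only are bright in the liver column alone, while miR-192-5p is brightest in intestine, followed by liver and slow muscle.

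Names high in liver were those with at least 100 CPM in liver and at least 2 times the level of the highest other library. Of the 299 names that reached 100 CPM in any library, 14 (4.68%) met this rule. By the same rule against their own 7 others, 45 names were high in brain (15.1%), 26 in eye (8.7%), 29 in testis (9.7%), 27 in intestine (9.03%), 5 in heart (1.67%), 12 in slow muscle (4.01%) and 9 in ovary (3.01%). Liver thus had fewer high names than brain, testis, intestine and eye. Its 14 names came from 8 miRNA numbers: miR-122, miR-460, miR-101, miR-217, miR-152, miR-148, let-7 and miR-22. Liver was the highest library by any margin for 29 of the 299 names (9.7%). The fold rule is a description, and nothing was tested across replicates.

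**Figure D2:**
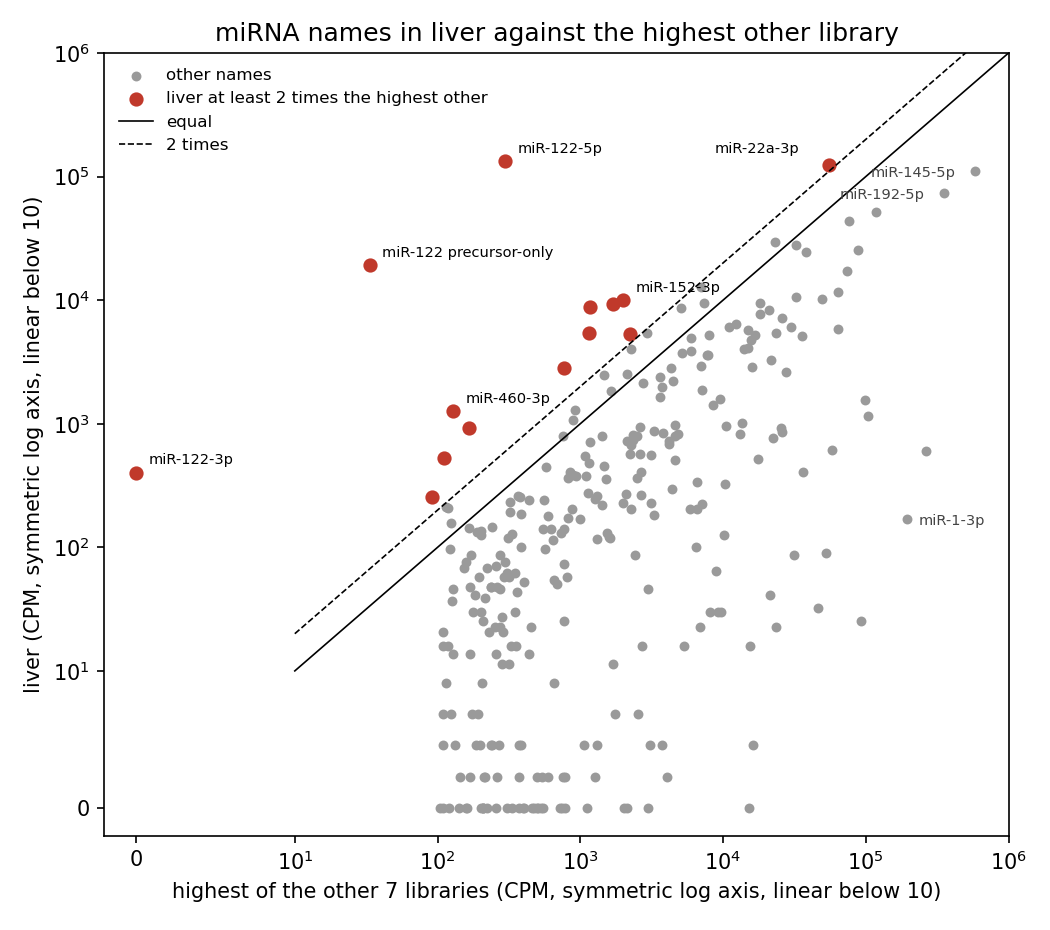
Liver CPM (vertical axis) against the CPM of the highest of the other 7 libraries (horizontal axis) for the 299 names with at least 100 CPM in any library, on axes that are logarithmic above 10 CPM, with lines at equal levels and at a ratio of 2. The 14 red points lie above the line of 2, with the 3 miR-122 names farthest from it.

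The strongest contrast was that of miR-122. The ratio of miR-122-5p in liver to intestine, the highest other library, was 452 (95% interval 408 to 503). miR-122 precursor-only was at 19131 CPM in liver, with 8366 reads. It had 18 reads in ovary, 12 in intestine, 6 in slow muscle, 3 in brain and 0 in eye, heart and testis. Its ratio to ovary, 33.5 CPM, was 571 (361 to 965). These precursor-only reads were nearly all 1 product: 99.9% of them overlapped the leading sequence, which lies on the 3p side of the hairpin. The 5p product made up 87.5% of the liver reads of both products.

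A further 176 liver reads, or 402 CPM, were named miR-122-3p and had 0 reads in the other 7 libraries. Against the detection floor of the shallowest library this is at least 7.32-fold higher in liver. Their leading sequence was assigned to a flounder entry and differed at 1 base from the leading precursor-only product after 18 identical bases. They amounted to 2.10% of the reads of that product, and whether they come from another locus was not tested. With the 3 names summed, miR-122 reached 153530 CPM in liver and at most 306 CPM in the other libraries.

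miR-22 and miR-101 are both abundant in vertebrate liver. miR-22a-3p had 123365 CPM in liver, against 55294 CPM in intestine, 42972 CPM in slow muscle, 27439 CPM in heart, 24915 CPM in ovary, 24800 CPM in eye, 23194 CPM in testis and 16130 CPM in brain. Every other library held a substantial level of it, so its ratio to the highest was only 2.23 (2.21 to 2.26). This was the ratio nearest the threshold among the 14 names. With edgeR's TMM scaling it was 1.52, and neither miR-22a-3p nor miR-22-3p met the rule. miR-22-3p, at 5301 CPM in liver and 2231 CPM in intestine, had a ratio of 2.38 (2.25 to 2.51), which was 1.12 with identical mature matches only. Its leading sequence matched a medaka entry and differed from that of miR-22a-3p only at the last base. Whether it is a separate locus was not tested. Its reads were 4.30% of those of miR-22a-3p in liver and between 2.01% and 9.01% in the others.

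miR-101b-3p showed a larger contrast than miR-22a-3p. It had 3816 reads or 8726 CPM in liver. Testis, the highest other library, held 1173 CPM on 64 reads, and the other 6 held between 424 CPM (intestine) and 906 CPM (heart). The ratio to testis was 7.44 (5.81 to 9.68). Of the 9 names of miR-22 and miR-101 that reached 100 CPM, 3 were high in liver, against 4.68% of all 299 names. With TMM scaling miR-22a-3p and miR-22-3p dropped out of these 3. miR-22b-3p had 61.7 CPM in liver, below its median of 91.1 CPM in the others. miR-22b precursor-only had 128 CPM in liver and 333 CPM in eye. The close relative of miR-101b-3p, miR-101a-3p, which differs at 1 base in the leading sequences, had 1857 CPM in liver and 1654 CPM in brain, a ratio of 1.12 (1.03 to 1.22) that turned to 0.906 with TMM scaling. miR-101a-3p reads were 21.3% of the miR-101b-3p reads in liver, but between 112% and 321% in intestine, heart, slow muscle, eye and brain. Ovary (45.9%) and testis (7.81%) were like liver in holding more miR-101b-3p than miR-101a-3p. The balance of the pair was thus toward miR-101b-3p in liver and toward miR-101a-3p in the other somatic tissues, with eye nearly even at 360 and 322 reads.

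**Figure D3:**
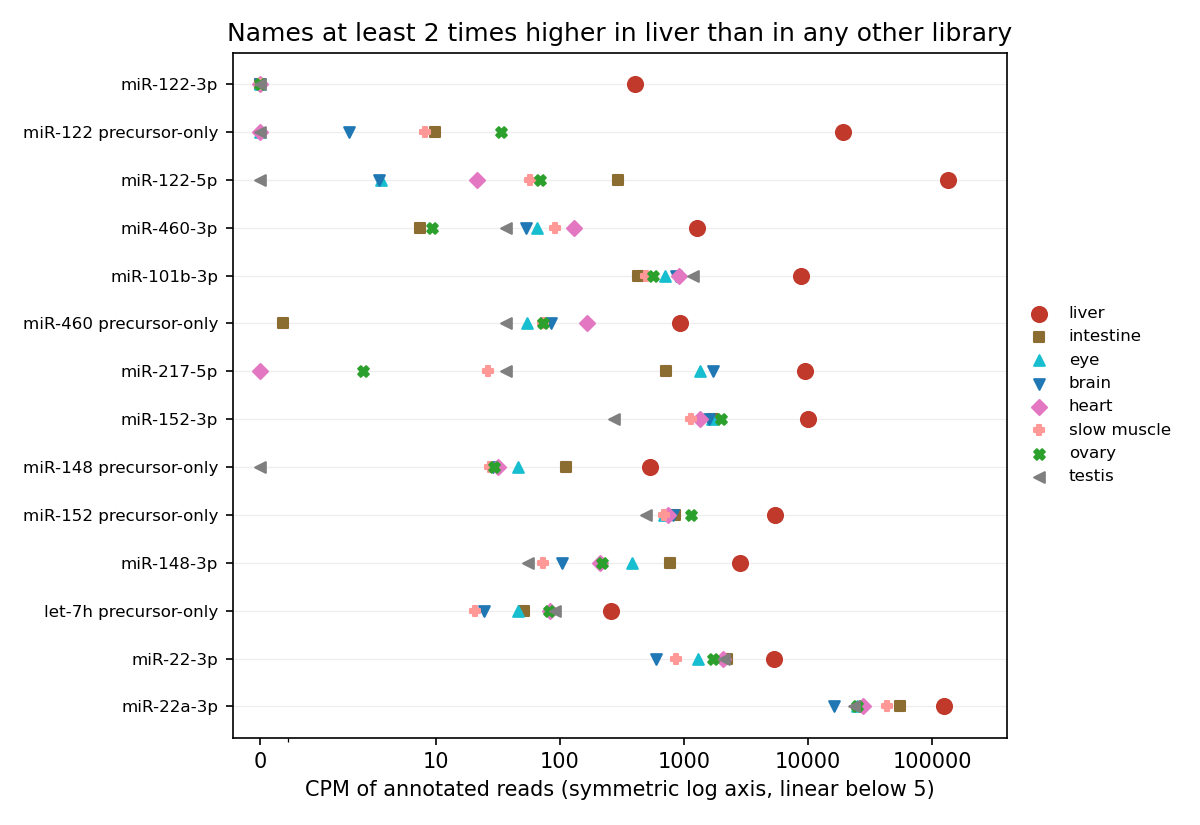
CPM of the 14 names high in liver in each of the 8 libraries, ordered by the ratio of liver to the highest other library, with 1 symbol a library and a horizontal axis that is logarithmic above 5 CPM. The liver circle lies to the right of all others in every row, by the widest gap for the miR-122 names and by the narrowest for miR-22a-3p.

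miR-148 and miR-152 are a seed family, and in mammals miR-148a is among the abundant liver miRNAs. All 4 of its names that reached 100 CPM were high in liver, against 4.68% of all names. miR-152-3p had 10018 CPM in liver. It was at 1985 CPM in ovary, 275 CPM in testis, and between 1133 CPM and 1707 CPM in the other 5 libraries. The ratio to ovary was 5.05 (4.72 to 5.40). miR-148-3p had 2842 CPM in liver, against 771 CPM in intestine, 379 CPM in eye and at most 218 CPM in the rest, with a ratio to intestine of 3.69 (3.38 to 4.02). The products of the other hairpin arm, recorded as precursor-only, were high as well. miR-152 precursor-only had a ratio of 4.76 (4.36 to 5.21) to ovary and miR-148 precursor-only a ratio of 4.77 (3.84 to 5.94) to intestine. Summed over the family, liver held 18839 CPM and the highest other library 3432 CPM (intestine). The shared seed CAGTGCA carried 12179 CPM in liver and 2216 CPM in intestine.

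miR-217 and miR-216 are known from the exocrine pancreas and miR-375 from pancreatic islets. miR-217-5p had 4101 reads or 9378 CPM in liver. It had 1697 CPM in brain, 1343 CPM in eye, 721 CPM in intestine, at most 36.7 CPM in slow muscle, ovary and testis, and 0 reads in heart. Its ratio to brain was 5.52 (5.21 to 5.86). miR-216a-5p, from a neighbouring gene of the same RefSeq cluster, was also highest in liver, but at only 208 CPM (91 reads) against 118 CPM in eye, a ratio of 1.77 (1.25 to 2.52). The third gene of the cluster did not follow: miR-216b-5p had 48.0 CPM in liver against 238 CPM in eye and 214 CPM in brain. miR-375-3p had 569 CPM in liver and 2221 CPM in intestine.

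The 9 names of these pancreatic miRNAs summed to 10391 CPM in liver, of which miR-217-5p made up most. They summed to 3450 CPM in intestine, 2008 CPM in brain, 1840 CPM in eye, and between 18.6 CPM and 395 CPM in the remaining 4. All 5 that reached 100 CPM were at least 2 times the median of the other libraries, against 35.1% of all 299 names. For miR-216b-5p that median was 0 CPM. Of the 5, miR-216b-5p, miR-375-3p and miR-375 precursor-only were each exceeded by another library, and only miR-217-5p met the fold rule. The share of pancreatic tissue in the liver sample was not tested.

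miR-460 is a miRNA known from fish and birds. miR-460-3p had 556 reads or 1271 CPM in liver, against 129 CPM in heart, 91.1 CPM in slow muscle, 65.4 CPM in eye, 53.8 CPM in brain, 36.7 CPM in testis, 9.30 CPM in ovary and 7.45 CPM in intestine. Its ratio to heart, 9.84 (8.03 to 12.1), was the largest of the 14 names outside miR-122. Intestine, ovary and testis held at most 9 reads each. miR-460 precursor-only had 926 CPM in liver, 166 CPM in heart and 0.828 CPM in intestine, with a ratio to heart of 5.60 (4.62 to 6.81). Its leading sequence came from the other hairpin arm than miR-460-3p. Both arms of this hairpin were thus high in liver.

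The remaining name of the 14 was let-7h precursor-only, with 112 reads or 256 CPM in liver. Its ratio to testis, 2.79 (1.16 to 8.77), rested on 5 testis reads. The mature arm let-7h-5p did not meet the rule, with 485 CPM in liver and 1156 CPM in intestine. let-7g-5p, whose gene is the RefSeq neighbour of let-7h, was highest in liver at 4038 CPM, and its ratio to heart of 1.78 lay just below the threshold. Others just below it were miR-10c-5p (1.85, to brain), miR-101a precursor-only (1.84, to slow muscle) and miR-19a-3p (1.82, to testis). With TMM scaling the ratio was 1.22 for let-7g-5p, to intestine, and 1.49 for miR-10c-5p. It was 1.64 for miR-101a precursor-only and 1.86 for miR-19a-3p.

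Liver shared its digestive miRNAs with intestine. miR-192 and miR-194 lie next to each other in the RefSeq annotation, and in mammals they are known from gut, liver and kidney epithelium. miR-192-5p had 73751 CPM in liver and 352792 CPM in intestine. It had 11699 CPM in slow muscle, 1543 CPM in brain, 591 CPM in ovary, and between 126 CPM and 147 CPM in heart, eye and testis. Its liver level was 0.209 times that of intestine, and only intestine exceeded it. miR-194-5p had 3298 CPM in liver, 21748 CPM in intestine, 919 CPM in slow muscle and at most 129 CPM elsewhere. miR-215-5p had 1427 CPM in liver and 8450 CPM in intestine. It differed from miR-192-5p at 1 base of the leading sequences and amounted to 1.93% of its reads in liver and to between 1.20% and 2.70% in the other libraries with at least 50 miR-192-5p reads. Whether its reads come from a separate locus was not tested. All 5 names of this group that reached 100 CPM were second to intestine. Without the intestine library, 5 further names met the fold rule in liver: miR-192-5p with a ratio of 6.30, miR-194-5p, miR-194 precursor-only, miR-215-5p and miR-18-5p.

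Against the median of the other 7 libraries, 105 of the 299 names (35.1%) were at least 2 times higher in liver and 64 (21.4%) were at most 1/2 of the median. The detection floor was not applied to these counts or to those of the lists below. Names such as miR-211-5p (1 liver read) and miR-96-5p (2 liver reads), with medians of 0 CPM, thus counted as higher. Names such as miR-206-5p, with 0 liver reads against a median of 1.13 CPM, counted as lower. The median log2 ratio over all 299 names was 0.21, with 1 CPM added, so liver values sat slightly above the median of the others. This shift depended on the scaling, and TMM factors set it to 0.00, with 85 names higher and 76 lower.

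No name met the rule for being low in liver, which was at most 1/2 of the lowest other library among the 88 names with at least 100 CPM in all 7 others (0%). Liver was the lowest library by any margin for 3 of these (3.41%). miR-15a-5p, of a family known for restraining the cell cycle, came nearest with 327 CPM in liver and 588 CPM in eye, a ratio of 0.556 (0.450 to 0.683). With TMM scaling it met the rule. miR-1388-3p had a ratio of 0.899 (0.637 to 1.25) to brain, which did not differ beyond counting error, and miR-29a-3p a ratio of 0.933 (0.887 to 0.981) to ovary. Without testis, where muscle miRNAs were also scarce, 3 names met the rule, which were miR-1-3p, miR-133-3p and miR-133 precursor-only.

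Ranked here are names with at least 100 CPM in liver or as the median of the others. Names under both limits were left out, such as miR-133c-3p with 0 liver reads against a median of 18.3 CPM. The ranked names farthest below the median included several that mark other organs. miR-130-3p had 204 CPM in liver against a median of 3579 CPM, with 53.9 CPM in ovary and at least 1463 CPM in the other 6. miR-301-3p, from the gene next to miR-130 in the RefSeq annotation and with the same seed, was not low: it had 2381 CPM in liver against a median of 871 CPM. The muscle miRNAs were next. miR-1-3p had 169 CPM in liver (74 reads) against a median of 2052 CPM, miR-133-3p had 32.0 CPM against 250 CPM, and miR-133 precursor-only had 41.2 CPM against 344 CPM. The others were miR-10d-5p, miR-204b-5p, miR-34a-5p, miR-187-3p, miR-458-3p and miR-193-3p, with at most 126 CPM in liver and medians between 147 CPM and 619 CPM in the others. For miR-10d and miR-204b this held for the lettered name only. With letters dropped, miR-10-5p and miR-204-5p were 2.40 and 3.10 times the median in liver.

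Lists of miRNAs with a known cell type or family were compared by their summed CPM. Of 35 lists, 5 were highest in liver: miR-122, miR-22 with miR-101, miR-148 with miR-152, the pancreatic miRNAs, and miR-199 with miR-214. Those of miR-199 and miR-214, known from mesenchymal and stellate cells, summed to 55544 CPM in liver and 53062 CPM in slow muscle. With TMM scaling this order turned, to a ratio of 0.935. The sum rested on miR-199, since miR-214-3p had 725 CPM in liver against a median of 1652 CPM and 4211 CPM in slow muscle. The erythroid miRNAs miR-451 and miR-144 summed to 26147 CPM in liver, below heart (90220 CPM) and eye (81312 CPM). The endothelial miR-126 names summed to 69235 CPM in liver, below heart (164148 CPM) and slow muscle (97208 CPM). Liver was thus 3rd of 8 for the blood and vessel miRNAs, and also for the leukocyte list, led by miR-223-3p with 7222 CPM. Of the 4 leukocyte names that reached 100 CPM, 1 (miR-146a-5p) was at least 2 times the median, against 35.1% of all names. None was at most 1/2 of it, against 21.4% of all names. Below the median were miR-142a-5p (96.0 CPM in liver, median 192 CPM) and miR-142a precursor-only (142 CPM, median 188 CPM). With TMM scaling liver was 5th for the erythroid list, 4th for the leukocyte list and still 3rd for miR-126.

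Other lists were low in liver. The striated muscle names summed to 302 CPM in liver, against 202 CPM in testis and 385240 CPM in slow muscle. Of the 18 that reached 100 CPM in a library, 13 were at most 1/2 of the median of the others and 0 were at least 2 times above it, against 21.4% and 35.1% of all names. Among the 13, miR-1a-3p, miR-133a-3p, miR-133a precursor-only, miR-133b-5p, miR-206-5p and miR-499a-5p had 0 liver reads against medians of 1.13 to 6.45 CPM. Those medians lie below the liver floor of 6.86 CPM, so these names cannot show a level under 1/2 of the median. The miR-15/16 list was lowest of the 8 in liver, with 1537 CPM against at least 1779 CPM. Of the 10 names of miR-99, miR-100 and miR-125 that reached 100 CPM, 7 were at most 1/2 of the median, against 21.4% of all names. Of the same 10, 0 were at least 2 times above it, against 35.1%. miR-100-5p, the most abundant in liver, was not among the 7. It had 17261 CPM in liver against a median of 22621.5 CPM and 73799 CPM in brain. The list summed to 32353 CPM in liver, 10701 CPM in intestine and 163131 CPM in brain, and liver was 7th of 8. miR-365-3p had 821 CPM in liver against a median of 2557 CPM, and miR-29a-3p had 6049 CPM against 13253 CPM. miR-29b-3p was near its median, with 5722 CPM against 6124 CPM. By summed CPM liver was 7th of 8 for miR-29 and 6th for miR-193 with miR-365.

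Some miRNAs known from other organs were present in liver above the median. miR-138-5p, a miRNA of neurons in mammals, had 8315 CPM in liver, 20901 CPM in brain, 2769 CPM in testis, 1018 CPM in eye, and between 112 CPM and 438 CPM in heart, ovary, slow muscle and intestine. Liver was second to brain, and the median of the others was 438 CPM. The neural list as a whole summed to 16780 CPM in liver, with miR-138-5p its leading name there, and to 392324 CPM in brain. Of its 29 names that reached 100 CPM, 15 were at least 2 times the median of the others in liver, against 35.1% of all names. A further 4 were at most 1/2 of it, against 21.4% of all names. Among the 15, miR-124a-3p, miR-153a precursor-only, miR-219 precursor-only and miR-9-3p each had 1 liver read against a median of 0 CPM. At 2.29 CPM these lay below the liver floor of 6.86 CPM. Also among the 15 were miR-138 precursor-only, miR-138a-5p and miR-138b-5p, which joined miR-138-5p when names with the same first bases were merged. Of the 4 lower, miR-153a-3p and miR-212-3p had medians of 4.97 and 4.14 CPM, also below that floor. miR-204a-5p, of the eye, had 1562 CPM in liver and 98278 CPM in eye. miR-200a-3p, of epithelia, had 5838 CPM in liver and 63866 CPM in intestine. Among 8 epithelial names that reached 100 CPM, 5 were at least 2 times the median and 2 at most 1/2, against 35.1% and 21.4% of all names. The 2 lower were miR-203-3p (43.4 CPM in liver, median 91.1 CPM) and miR-205-5p (11.4 CPM, median 46.9 CPM). miR-103-3p, compared as a family and not as the marker of an organ, had 7661 CPM in liver and 18169 CPM in brain.

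**Figure D4:**
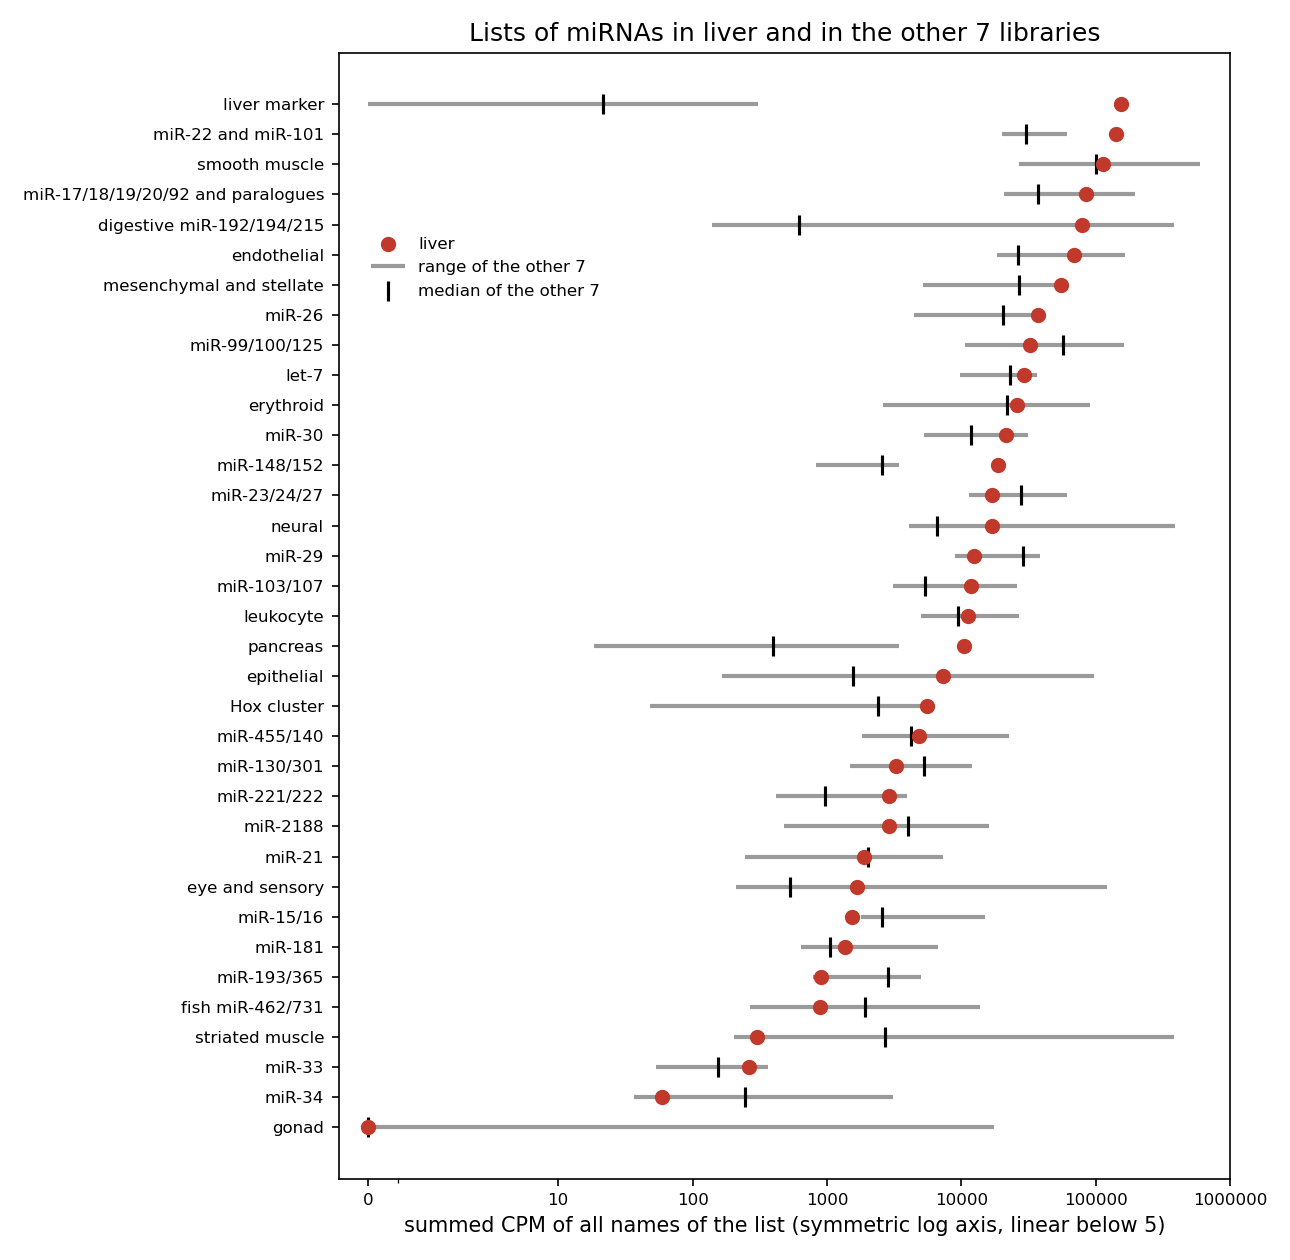
Summed CPM of the names of each of 35 lists of miRNAs, with liver as red points, the span of the other 7 libraries as grey lines, their median as black ticks and a horizontal axis that is logarithmic above 5 CPM. Liver lies to the right of the grey line for the liver marker, miR-22 with miR-101, miR-148 with miR-152, the pancreatic list and, by a margin that turned with TMM scaling, the mesenchymal list, and to the left of it for miR-15/16.

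The 5′ starts of most miRNAs in liver were precise and were shared with the other tissues. For the 139 arms with at least 50 liver reads, counted with the precursor-only reads that overlap them, a median of 98.8% of the reads began at the start of the leading sequence, and 114 arms had at least 90% there. The 3′ ends varied more, with a median of 65.5% at the end of the leading sequence. Of the 130 arms that could be compared with at least 3 other libraries, 3 had another most common start in at least 1 of them, which were miR-101b-3p, miR-199a-5p and miR-455-3p. miR-199a-5p was the only arm whose most common start in liver differed from that of most others, and it had 130 liver reads. Without precursor-only reads no arm differed in this way. That name is a minor part of miR-199. In the main name, miR-199-5p, the later start stayed the most common in liver, but the share of the earlier start differed in the same direction.

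miR-199-5p began 1 base earlier in a large share of its liver reads. The earlier start made up 46.1% (95% Wilson interval 45.3 to 47.0) of 13026 miR-199-5p reads in liver. It made up 5.95% (4.81 to 7.33) in brain, 5.55% (4.82 to 6.39) in intestine, 2.92% (2.64 to 3.23) in ovary, 2.50% in eye, 1.86% (1.56 to 2.21) in heart, 1.85% (1.11 to 3.08) in testis and 0.650% (0.486 to 0.869) in slow muscle. The liver share thus lay far outside the range of the other 7, and no interval came near it. In CPM, the earlier form had 13741 CPM in liver against 671 CPM in ovary, a ratio of 20.5 (18.4 to 22.8). The later form had 15925 CPM in liver, below the 22145 CPM of ovary, a ratio of 0.719 (0.698 to 0.741).

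The 2 forms present different seeds. The seed CCCAGTG, that of the earlier form, carried 14036 CPM in liver and 724 CPM in ovary. Of the 283 seeds with at least 100 CPM in any library, 17 (6.01%) met the fold rule in liver. All were led by names high in liver, except this one and a seed led by miR-19a-3p. The deposited names assign the later form to 3 precursor copies of miR-199 and the earlier form to only 2 of them, in which the extra base matched the precursor. The share was 45.8% with all names of miR-199, miR-199a and miR-199b pooled. The other product of the hairpin, which forms 98.9% of miR-199 precursor-only, was at 24336 CPM in liver and 38394 CPM in slow muscle, and the 5p product was 55.0% of both in liver.

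**Figure D5:**
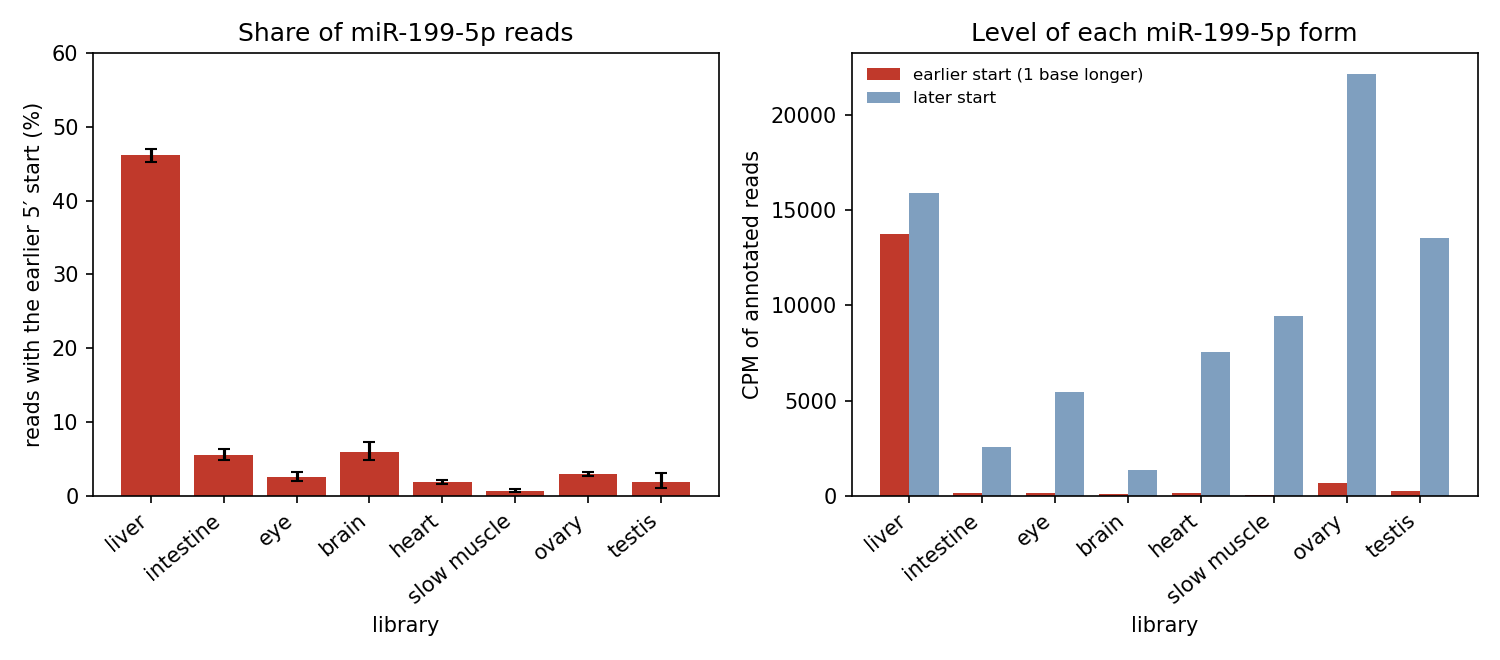
Left, percent of miR-199-5p reads with the start that lies 1 base earlier, by library, with 95% Wilson intervals, and right, CPM of the earlier (red) and the later (blue) form. The earlier form makes up 46.1% of the reads in liver and at most 5.95% in the other 7 libraries, while the later form is highest in ovary.

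miR-101 also differed in its start, by less. In liver 63.3% (61.7 to 64.8) of the miR-101b-3p reads began at the earlier start, against 33.8% to 59.5% in the other 7 libraries, and in ovary and brain the later start was the most common. For miR-101a-3p the share was 84.9% (82.2 to 87.2) in liver and between 57.3% and 78.6% in 6 others. Liver was the highest library for the earlier start of both, but the intervals overlapped that of liver in intestine (up to 63.6%) and testis (up to 67.7%) for miR-101b-3p and in ovary (up to 84.6%) for miR-101a-3p. The seed of the earlier form, TACAGTA, had 7208 CPM in liver and 1558 CPM in heart.

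The 2 miR-122 products differed in how uniform their ends were. For miR-122-5p, 98.9% of the liver reads began at the same base. Their length varied at the 3′ end, with 41.3% of 21 nt and 38.6% of 22 nt. For miR-122 precursor-only, 36.0% were of 21 nt, 24.7% of 20 nt and 23.7% of 19 nt. Its starts were spread as well: 60.6% of its reads (5066) carried the seed ACGCCAT of the leading form, and 37.2% (3110) carried the seed AACGCCA of a form that begins 1 base earlier.

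The most common 3′ end in liver differed from that of most other libraries for 14 of the 130 arms. miR-130-3p, which had the lowest ratio to the median among the names ranked above, was one of them. Its leading liver sequence ended 2 bases early, with 46.1% of 89 reads holding that exact sequence, against 2.32% to 5.13% in the 6 others. miR-135a-5p went the other way: 51.5% of its 375 liver reads held the longer leading sequence, against 15.3% to 17.8% in brain, eye and heart. Over the 130 arms, the mean length in liver was above that of every other library compared for 42 and below it for 12. Among 56 arms with at least 50 reads in all 8 libraries, liver was the longest for 11, slow muscle and testis for 12 each, and the other 5 for 1 to 6 each.

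The balance of the hairpin arms could be compared for 114 miRNAs. For 99 of these 1 arm held at least 99% of the mature reads in liver and in every other library compared, so these shares had little room to differ. Of all 114, 2 lay outside the range of the other libraries. miR-24, one of the 99 one-sided miRNAs, had 0.807% (0.505 to 1.29) of its reads on the 5p arm in liver and at most 0.368% elsewhere. Its liver share rested on 17 reads of the 5p arm. miR-7 had 97.0% (92.6 to 98.8) in liver, with the lowest of 3 others inside that interval. By mature reads alone, 5 miRNAs were farthest from the median of the others. miR-2779, whose 5p name is one of the short CCA names, had 67.9% on the 5p arm in liver (median 52.4%). The others were miR-181a (78.8%, median 65.5%), miR-30e (89.9%, median 78.0%), miR-140 (54.9%, median 65.0%) and let-7b (86.5%, median 96.1%). Each of these 5 lay between the lowest and the highest of the other libraries. With precursor-only reads added to the mature arm they overlap, 117 miRNAs could be compared, of which 96 were as one-sided in every library. miR-140 was then mainly 3p in liver, with 243 reads on the 5p arm and 1487 on the 3p arm (14.05% 5p, median 22.4%). let-7b had 73.9% on the 5p arm (median 86.6%). miR-199 was now the farthest from the median, with 55.4% on the 5p arm in liver against 24.7%. It lay within the range of the others, 20.05% to 84.3%. Products of an arm without a mature entry stayed out of these shares. Among them were most of the 2379 liver reads of miR-152 precursor-only and of the 1115 of miR-22a precursor-only. A one-sided share thus need not mean that the other arm was absent. By this count 3 miRNAs lay outside the range, which were miR-24, miR-126 and miR-460. miR-126 had 37.7% (36.6 to 38.8) of its reads on the 5p arm in liver against 4.51% to 36.4% in the other 7. This holds for the name miR-126 only. Its 3p arm had 4609 liver reads, and a further 22722 were named miR-126a-3p and left out. The leading sequences of both names were identical over 21 nt, so the share depends on how reads were split between them. miR-460 had 40.3% (37.3 to 43.4) in liver against 43.8% to 60.6% in 4 others. No interval was computed for the shares of these 4, which rested on fewer reads than that of liver.

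Across the 299 names, the liver profile was ranked most like that of intestine, with a Spearman correlation of 0.81. It was followed by ovary (0.74), heart and slow muscle (both 0.71), brain (0.67), testis (0.66) and eye (0.57). These are descriptions over names within pairs of single libraries, and the names are not independent. By the share of reads that 2 libraries have in common name by name, the order was another: 49.9% with slow muscle, 48.6% with heart and 46.9% with intestine. The order of the nearest tissues depended on the measure.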

How the data were processed

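Total RNA of each tissue was extracted with a mirVana kit, size-selected and sequenced on a SOLiD 3 system by the authors, who removed low-quality reads, trimmed adaptors, collapsed identical sequences of 18 to 25 nt and matched them to miRBase 19 in CLC genomics workbench (version not given in the sources used here), by species set, torafugu first. Each deposited value is the count of reads of 1 distinct sequence, not normalized, and all rows had 0 mismatches. Only reads matched to miRBase at this step were used.

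Counts were summed by name (copy number dropped, the first of several names kept) and arm and divided by the annotated reads of the library. Liver was compared with the highest, median and lowest of the other 7 libraries. The lowest ratios to the median were ranked among names with at least 100 CPM in liver or as that median. Names in the text are the 10 with most liver reads, the 10 largest ratios to the highest other library, the 10 lowest ratios to the median, names low in liver, names of the liver, digestive, miR-22/101, pancreas and erythroid lists, the leading name of other lists, and names with another 5′ start or arm share. The 4 further names high in liver, let-7g, let-7h-5p, miR-15a, miR-18, miR-19a, miR-24, miR-7, miR-126 arms, miR-214, miR-135a, miR-455 and miR-1388 were named after their values were seen. Further list members, named as examples of higher, lower or low-count names, fell outside these rules. The names, lists and rules were chosen with earlier results of these data known. Starts and ends were placed by ungapped overlap (at least 14 nt, up to 2 mismatches, up to 4 nt shift). Ratio intervals and fold rules were tested on simulated reads with Poisson counting error alone. The intervals were checked for liver against brain, and not against a library picked as the highest or lowest. Alternatives were other denominators, edgeR TMM factors, match types, name rules, minimums, folds and sets of libraries. Gene neighbours came from RefSeq names only.

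Software was R 4.3.3, edgeR 4.0.16, Python 3.11.15, matplotlib 3.10.9, pandas 2.3.3, numpy 2.4.6 and scipy 1.17.1.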

Additional observations from a re-analysis of the deposited data

How the results depend on the processing

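No paired analysis was possible because each tissue has 1 library. With identical mature matches only, which leave out every precursor-only name, 9 names were high in liver, 51 were higher and 36 lower than the median of the others, and 17 were highest in liver. With ovary and testis left out 22 names were high in liver, among them all 14 of the report. Names low in liver numbered 1 with TMM factors and with a fold of 1.5 (miR-15a-5p), 1 with a minimum of 30 CPM and without the short CCA names (miR-133 precursor-only, the last setting chosen after seeing the data), 3 without testis and 5 without ovary and testis. Against the median, 32 names were lower with the 18 to 25 nt totals and 36 with letters dropped, 62 were higher and 30 lower at 1000 CPM, and 56 were higher and 35 lower at a fold of 4. With letters dropped 19 names were highest in liver. The higher names were 62.1% of all names past the fold to the median, 75.2% with the 18 to 25 nt totals, 52.8% with TMM factors, and 50.9% without intestine, where 85 were higher and 82 lower. The median log2 ratio over all names was 0.61, 0.00 and 0.02 under these 3. The 10 leading names held 23.4% of the 18 to 25 nt reads. With letters dropped, let-7 precursor-only had a ratio of 0.791 to the highest other library, and miR-10d and miR-204b passed to 2.40 and 3.10 times the median. Arms with another start in most libraries numbered 2 at 20 reads, 0 at 200 reads (84 arms compared) and 0 without precursor-only reads. Arm shares outside the range numbered 5 at 20 reads and 1 at 200 reads. The ratio of miR-122-5p stayed between 308 and 1947, that of miR-460-3p between 8.91 and 14.7, that of miR-101b-3p was at least 3.41 and that of miR-217-5p between 3.36 and 6.38 over the alternatives. Merging names that share their first 18 nt left 12 names high in liver, all among the 14; this and the TMM scaling of the lists were chosen after seeing the data. With 54540 reads, testis limits every comparison of names under 55.0 CPM.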
